A study of Mus musculus with 2 samples.

Results

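The C1q-high adipose macrophages described here are single cells in which the transcripts of the complement protein C1q were plentiful. Members were chosen by their summed C1q UMIs, as the cells of the authors' cluster 3 that carried at least 5 unique molecular identifiers (UMIs, each marking 1 captured mRNA molecule) of C1qa, C1qb and C1qc together. The rule took 302 of 10017 clustered cells, 275 of 4458 from the chow library and 27 of 5559 from the ketogenic diet (KD) library. Because the rule read C1q transcripts, and the clusters were built from expression of all genes, C1q levels and the contrasts with other cells are descriptions of how the cells were chosen.

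The cells came from adult wild-type C57BL/6 mice that ate chow or KD, a diet very low in carbohydrate that makes the liver release ketone bodies, for 1 week. Intravenous labelling marked leukocytes of the circulation, so that CD45+ cells resident in adipose tissue could be told from them and taken for droplet single-cell RNA sequencing (10x Genomics). There was 1 library per diet, the number of animals pooled into each is not given in the sources used here, and diet and library therefore cannot be told apart. No test of diet was possible; intervals in brackets are exact 95% intervals that cover counting error only.

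C1q is assembled from A, B and C chains, encoded by C1qa, C1qb and C1qc, and starts the classical complement pathway when it binds antibody or dying cells. Unlike most complement proteins, which the liver makes, C1q is made mainly by macrophages and dendritic cells. In adipose tissue, macrophages clear dead cells and take up lipid, and they form both from long-lived resident cells and from blood monocytes that express Ccr2 and Ly6c2. Resident macrophages of healthy tissue often carry the mannose receptor Mrc1 and, under type 2 cytokines, secrete RELMα, the product of Retnla.

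The members summed to 1780590 UMIs in chow and 193564 in KD. The median was 6150 UMIs per chow cell (1805 to 16922) and 6481 per KD cell (3633 to 14031), so single cells had like depth while the KD sum rested on far fewer molecules. Clustered cells all had under 5% mitochondrial UMIs, with member medians of 1.93% and 1.81%. The libraries shared 41 cell barcodes; 4 members carried one, and no barcode marked a member in both libraries. Both libraries were of male type, with 2 and 1 Xist UMIs in all against 1937 and 2339 of the Y-linked Ddx3y.

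The label was checked against 10 macrophage markers, 3 of which are the C1q chains that chose the cells. Of the other 7, 6 stood at least 2-fold above the rest of the clustered cells in both libraries, a description since the clusters were built from these genes; the exception was Mertk, at 9.55 counts per 1000000 UMIs (CPM) in chow and 0 in KD. Csf1r, the receptor for the macrophage growth factor, stood at 361 and 486 CPM against 92.6 and 18.5 CPM in the rest. The cells also carried monocyte genes: Ccr2 stood at 951 and 1090 CPM, and 2 of 7 monocyte markers, Fn1 and Chil3, stood at least 2-fold above the rest in both libraries. Genes of long-lived resident macrophages were scarce. Timd4, Marco and Clec4f had no UMI, Folr2 had 31 UMIs in chow and 0 in KD, Lyve1 had 4 and 0, and the haemoglobin scavenger receptor Cd163 had 18 and 1. Adipoq, Plin1, Lep, Col1a1, Pdgfra and all 5 mesothelial markers had 0 UMIs in the members of both libraries.

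C1q-high cells made up 6.17% [5.48 to 6.92] of the clustered chow cells and 0.486% [0.320 to 0.706] of the KD cells, a share 12.7-fold [8.54 to 19.6] lower in the KD library. Cluster 3 as a whole was also smaller in KD, and within it the C1q-high share was 32.0% [28.9 to 35.2] of 859 cells in chow and 18.6% [12.6 to 25.9] of 145 in KD, 1.72-fold lower. Over clusters 3, 5, 6, 8 and 12 together the share was 14.2% against 2.83%, 5.03-fold lower. With every cell thinned to 1500 UMIs and a cut of 2 C1q UMIs, the expected share was 5.64% in chow and 0.399% in KD, and no cell was too shallow for this. A share is relative, so fewer of these cells and more of other cells cannot be told apart. The clustering used genes that differ between the libraries, and the part of that in the cluster sizes was not tested.

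Within cluster 3, C1q counts ran from none to many with a thin middle. In chow 442 cells had no C1q UMI, 142 had 1 to 4 and 275 had 5 or more, and in KD the counts were 106, 12 and 27. Members held a median of 20 C1q UMIs in chow (5 to 121) and 19 in KD (5 to 111). Cluster 1, lymphoid cells with Ncr1 at 552 and 785 CPM, should lack C1q. There, 1 of 724 chow cells and 0 of 1062 KD cells reached 5 C1q UMIs, the latter allowing up to 0.282% taken as 3 cells (exact upper bound 0.347%), at lower median depths of 2296.5 and 3147 UMIs. At least 1 C1q UMI was found in 6.63% of those chow cells and 2.17% of those KD cells, against 48.5% and 26.9% of cluster 3. Just outside the cut, the 24 chow cells with 3 or 4 C1q UMIs had Apoe at 1304 CPM and Plac8 at 1281 CPM. Just inside, the 34 chow cells with 5 to 7 had 3229 and 455 CPM. The KD cells just outside and inside numbered 5 and 7, with Apoe at 2433 and 3816 CPM and Plac8 at 1886 and 2780 CPM, so Plac8 was lower inside the cut in chow and higher in KD.

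**Figure D1:**
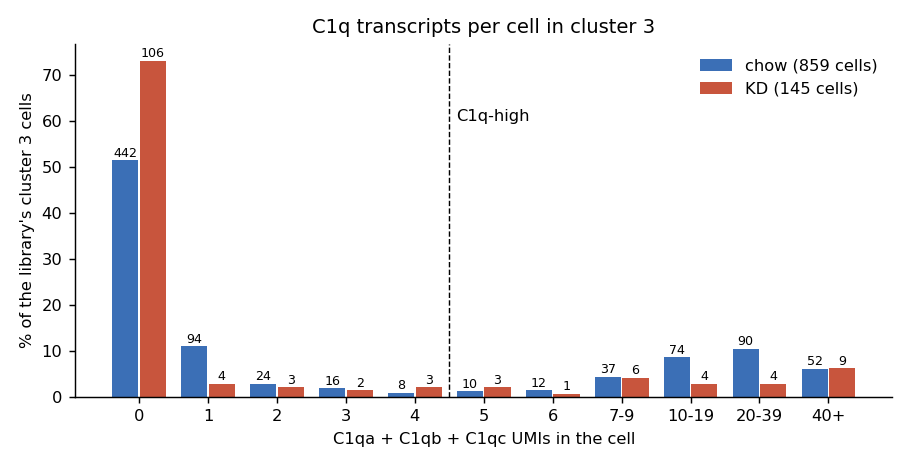
Bars give the percentage of each library's cluster 3 cells (y axis) by the summed C1qa, C1qb and C1qc UMIs of the cell (x axis, bins widening to the right), with cell numbers above the bars and a dashed line at the cut of 5 UMIs. Most cells had no C1q UMI, 442 of 859 in chow and 106 of 145 in KD, and few lay close to the cut.

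The chains kept like proportions in both libraries. C1qb, encoding the B chain, gave 54.7% [53.5 to 55.8] of the members' C1q UMIs in chow and 50.9% [47.4 to 54.4] in KD. C1qa gave 26.3% [25.2 to 27.3] and 29.7% [26.6 to 33.0], and C1qc gave 19.1% and 19.5%. All 3 chains were seen in 203 of 275 chow members and in 19 of 27 KD members. C1qa stood at 1038 and 1245 CPM, C1qb at 2161 and 2134, and C1qc at 754 and 816 in chow and KD. The log2 ratio of KD over chow was 0.27 for C1qa, -0.02 for C1qb and 0.12 for C1qc; these levels depend on the cut that chose the cells.

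The genes of the 3 chains are neighbours on the minus strand of chromosome 4 (mm10): C1qb at 136880129 to 136886187, C1qc at 136889804 to 136893065 and C1qa at 136895917 to 136898803. The promoters of C1qb and C1qc are shown because every C1q molecule needs all its chains; they are from RefSeq (GRCm38.p6), 250 bases before to 50 after the start site, 5′ to 3′ on the minus strand. The windows are chr4:136886151-136886450 and chr4:136892865-136893164, and the start site of C1qb in RefSeq is not a GENCODE M21 transcript start. Capitals mark matches, on either strand, to GAGGAA (the core bound by the myeloid factor PU.1), TGCTGA (the start of a Maf site) and TTC and GAA parted by any 4 bases (the spacing that STAT6 binds).
C1qb: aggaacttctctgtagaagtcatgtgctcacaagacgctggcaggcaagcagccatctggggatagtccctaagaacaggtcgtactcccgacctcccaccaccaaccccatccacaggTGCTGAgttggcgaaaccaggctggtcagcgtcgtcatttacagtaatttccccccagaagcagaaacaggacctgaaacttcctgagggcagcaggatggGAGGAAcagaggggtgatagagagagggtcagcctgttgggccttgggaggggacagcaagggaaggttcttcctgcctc
C1qc: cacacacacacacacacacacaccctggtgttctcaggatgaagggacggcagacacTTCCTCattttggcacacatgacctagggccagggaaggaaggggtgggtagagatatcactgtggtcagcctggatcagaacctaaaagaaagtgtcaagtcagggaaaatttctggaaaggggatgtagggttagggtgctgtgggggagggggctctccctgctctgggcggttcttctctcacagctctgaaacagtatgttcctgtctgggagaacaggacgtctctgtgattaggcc
The C1qb window held TGCTGA at position -131 and GAGGAA at -30 from the start site. The C1qc window held GAGGAA on the opposite strand at -193. Among 32851 promoter windows of this length, 28.3% held GAGGAA, 19.5% TGCTGA and 6.95% the STAT6 spacing, so these matches are common. The matches printed here do not overlap, and a match describes letters and not binding.

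Among the 275 chow members, C1q ranged from 5.49 to 154 UMIs per 10000, and the cells were split into tertiles by that level as a description. Apoe, the lipid carrier of cholesterol efflux, stood at 3148, 3124 and 5413 CPM from the low to the high tertile. Pf4, a platelet-factor chemokine made by resident macrophages, stood at 133, 210 and 364 CPM, and the tetraspanin Cd81 at 62.4, 114 and 169 CPM. Retnla stood at 3902, 5843 and 8276 CPM. Ly6c2, a surface protein of classical monocytes, ran the other way, at 261, 122 and 107 CPM. Ccl24, an eosinophil-attracting chemokine, stood at 2091, 771 and 265 CPM. That order rests on few cells, since 73 of 275 chow members held Ccl24 and the 10 with most gave 87.9% of its UMIs. The genes ranked highest by Spearman correlation with the C1q level over these cells, of 2751 detected in at least 20% of them, were Pf4 at 0.29, Sepp1 at 0.24, Apoe and Cd74 at 0.23, and Ltc4s and Pts at 0.22. These are weak correlations in sparse counts, and the C1q level itself had a correlation of -0.15 with the cell's UMIs. Over the 27 KD members the values for Pf4 and Sepp1, which encodes the selenium carrier selenoprotein P, were 0.64 and 0.57; those for Apoe, Cd74, Ltc4s and Pts were 0.37, 0.20, 0.23 and 0.04.

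**Figure D2:**
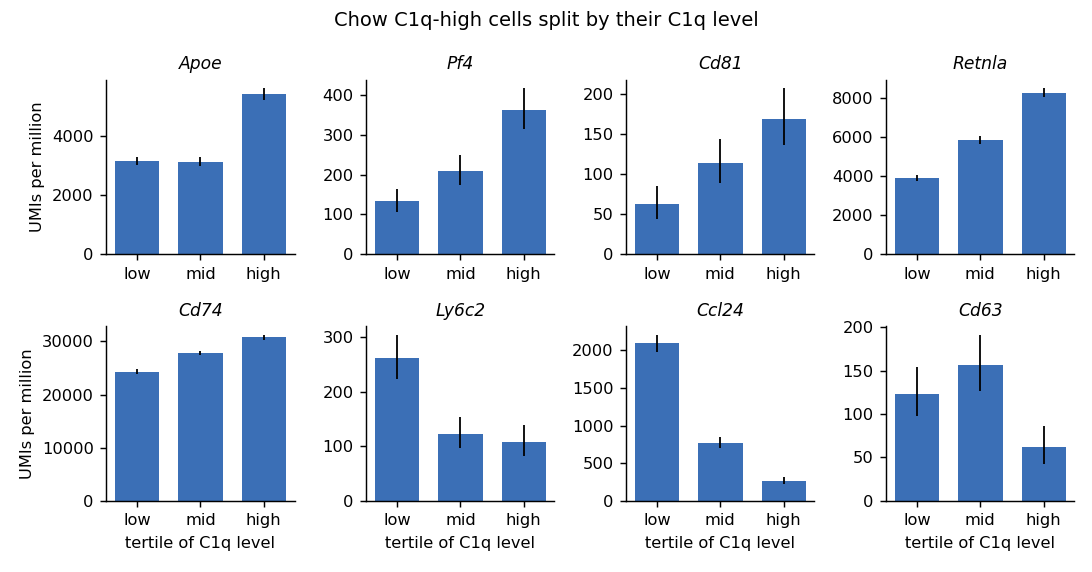
Bars give summed UMIs as CPM (y axes, linear from 0) of 8 genes in the chow C1q-high cells, split into tertiles by C1q UMIs per 10000 (x axes); vertical lines are exact Poisson 95% intervals. Apoe, Pf4, Cd81, Retnla and Cd74 were highest in the tertile with most C1q, and Ly6c2 and Ccl24 were highest in the tertile with least. The 10 cells with most Ccl24 gave 87.9% of its UMIs.

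Chow members were not uniform. A clustering of these cells alone, made after the data were seen, gave 5 subsets. A subset of 74 cells carried Retnla at 13724 CPM together with Cxcl1, Il6, Fcrls and Pf4. Retnla was also high in a subset of 39 cells, at 10018 CPM, and stood at 673, 1484 and 740 CPM in the subsets of 82, 70 and 10 cells. A subset of 82 cells led with S100a8 and S100a9, most of whose chow UMIs were in 1 cell, then with Cd63, Spp1, Lpl and, further down, Fabp5, genes of lysosomes and lipid uptake; Lpl, which frees fatty acids from triglyceride, stood there at 702 CPM against 216 in all other chow members. Among the leading genes of a subset of 70 cells were Hspa1a, Fos, Atf3, Klf2 and Jun, immediate early and stress genes, with Fos at 5259 CPM against 1661 in the others. A subset of 10 cells held Ccl24 at 16423 CPM against 216 and Chil3 at 3836 against 216 in the others. The subset of 39 cells led with Ccl17 and with T cell genes such as Trbc2 and Cd3g, and 14 of them carried at least 3 UMIs of the 13 fixed T and NK cell markers.

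Between diets, 2240 genes had at least 100 UMIs over the members of both libraries. Of these, 68 (3.04%) were at least 2-fold higher in KD members and 103 (4.6%) at least 2-fold lower, with a median log2 ratio (KD over chow) of 0.01. The split depends on the small count added to each sum, because the KD sum is smaller: with 5 added in place of 0.5 it was 119 higher and 33 lower, and with an addition scaled to depth it was 65 and 114. Without each gene's top cell in each library it was 40 higher and 217 lower. Gene lists below are counted over 8106 genes with at least 10 UMIs, where the interval of the ratio lay above 1 for 572 (7.06%) and below 1 for 324 (4%), with a median log2 ratio of 0.10.

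Retnla and Ccl24, genes of alternative activation, the state that interleukin-4 induces in macrophages, were among the 10 genes with the lowest ratios. Retnla (ENSMUSG00000061100) had 10530 UMIs in chow members and 58 in KD members, 5914 CPM [5801 to 6028] against 300 [228 to 387], 19.7-fold [15.3 to 26.0] lower in KD. Per cell, Retnla ran from 0 to 962 UMIs per 10000 with a median of 5.45 in chow, and from 0 to 19.1 with a median of 0 in KD. The chow sum was carried by a minority: 51 of 275 chow cells and 0 of 27 KD cells held at least 50 per 10000, and the top 10 chow cells gave 46.7% of it. Retnla was also found in 69.6% of the chow cells of cluster 1 and 15.4% of its KD cells, at 562 and 54.0 CPM, so the median chow member lay close to the summed level of lymphoid cells in its own library. Without each library's top cell the log2 ratio was -4.89. Without the 26 chow and 4 KD members that carried at least 3 T and NK marker UMIs, the log2 ratio of Retnla was -5.89 in place of -4.29.

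The promoter of Retnla, the alternative activation gene with most UMIs, is printed as RefSeq gives it on the plus strand at chr16:48842359-48842658 (GRCm38.p6), with capitals for the same motifs.
Retnla: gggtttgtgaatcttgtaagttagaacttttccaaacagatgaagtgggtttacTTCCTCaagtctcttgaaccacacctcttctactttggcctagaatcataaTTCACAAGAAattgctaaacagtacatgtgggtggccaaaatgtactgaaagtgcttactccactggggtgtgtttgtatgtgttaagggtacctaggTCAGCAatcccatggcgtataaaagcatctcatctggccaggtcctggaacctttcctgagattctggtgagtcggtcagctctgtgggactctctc
The capitals are GAGGAA on the opposite strand at -196, the STAT6 spacing at -145 and TGCTGA on the opposite strand at -47.

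Ccl24 had 1919 UMIs in chow members and 1 in KD members, 1078 CPM against 5.17, with a ratio of KD over chow of 0.00479 [0.000121 to 0.0267]. Only 73 of 275 chow cells held it, and the 10 with most gave 87.9% of its UMIs. Ccl17, a ligand of Ccr4, had 54 UMIs and 0, and with 3 UMIs taken as the limit of a 0 it was at least 1.96-fold lower. That bound rests on the chow subset of 39 cells, which held 40 of the 54 UMIs; the other chow members stood at 9.29 CPM. Chil3, encoding the chitinase-like Ym1, stood at 408 CPM in chow and 263 in KD, a ratio of 0.645 [0.476 to 0.858]. The direction rests on the subset of 10 chow cells: the other chow members held Chil3 at 216 CPM, below the KD members. Without that subset Ccl24 stood at 216 CPM in chow. Of 15 measured members of this list, 6 had the interval below 1 and none above, with a median log2 ratio of -0.62. Not all followed: Mgl2 stood at 176 and 119 CPM, with an interval of 0.421 to 1.03, and Clec10a at 127 and 129 CPM. AA467197, outside the list, had 146 UMIs and 0, at least 5.29-fold lower, but 113 of the 146 UMIs were in the same 10 cells and the other chow members stood at 19.6 CPM.

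Cxcl2 and most of the measured monocyte-attracting chemokines stood lower in KD members. Cxcl2, a neutrophil attractant, had 11184 UMIs in chow and 161 in KD, 6281 CPM against 832, 7.55-fold [6.46 to 8.88] lower. The median chow cell held 39.8 Cxcl2 UMIs per 10000 (0 to 391) and the median KD cell 3.02 (0 to 110). Of 5 measured monocyte-attracting chemokines, 4 had the interval below 1 and 1 above, with a median of -1.03. Ccl2, the main ligand of Ccr2, stood at 850 and 263 CPM, a ratio of 0.310 [0.230 to 0.410]. Ccl7, another Ccr2 ligand, stood at 574 and 170 CPM, with 628 of its 1022 chow UMIs in the subset of 10 cells and 234 CPM in the other chow members. Ccl6 stood at 5598 and 2743 CPM. The exception, Ccl12, had 19 UMIs in chow and 27 in KD, a ratio of 13.1 [7.004 to 24.9], in 4 of 27 KD cells, with 20 of the 27 UMIs in 1 cell. Of 11 other chemokines 6 lay above and 5 below. Cxcl16 was higher in KD members, at 222 against 78.6 CPM. Ccl5 and Ccl4 were higher at 2.20-fold and 2.29-fold, but both are abundant in lymphoid cells, Ccl5 at 10461 and 10212 CPM in cluster 1, and the part of free lymphoid RNA in them was not tested.

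Inflammatory cytokines were mixed. Il6 had 325 UMIs in 74 chow cells and 2 in KD, a ratio of 0.0566 [0.00683 to 0.206], and Tnf had 237 and 10, a ratio of 0.388 [0.184 to 0.726]. Il1b, the cytokine that the inflammasome cleaves, stood at 2332 and 2500 CPM, with an interval of 0.974 to 1.18. Il1a had 40 UMIs in each library, 9.20-fold [5.78 to 14.6] higher in KD, with 57.5% of the KD UMIs in 1 cell. Of 13 measured members 4 lay below and 1 above, with a median of -0.30.

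**Figure D3:**
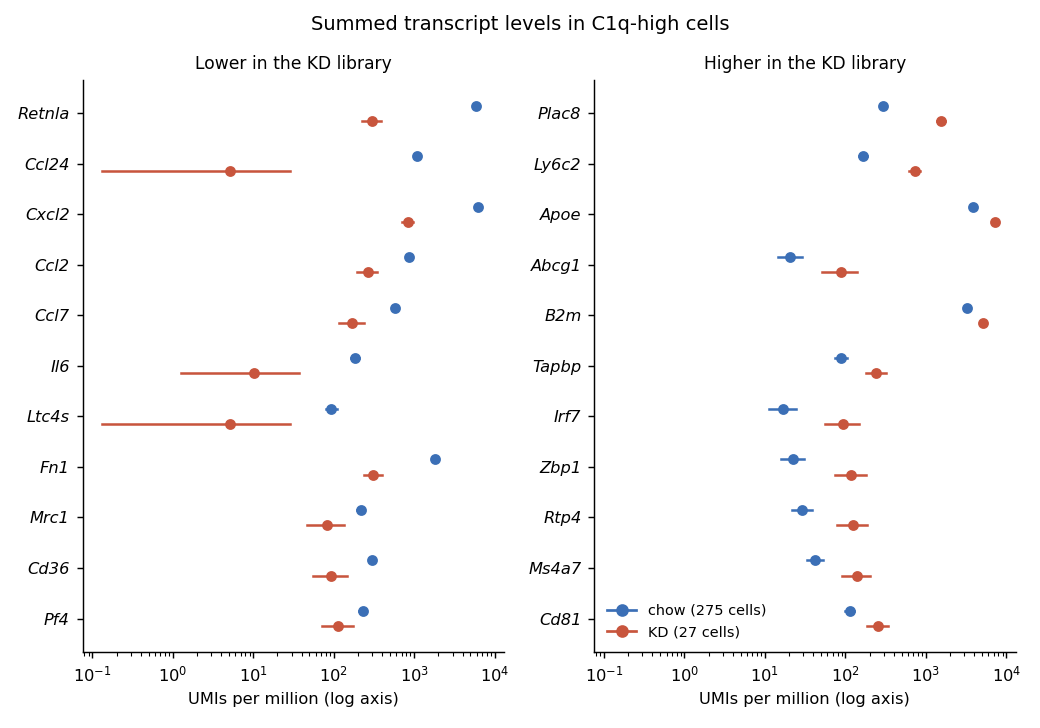
Points give summed UMIs as CPM (x axes, log scale) of 11 genes lower and 11 genes higher in KD among C1q-high cells, chow (275 cells) in blue and KD (27 cells) in red; lines are exact Poisson 95% intervals. Retnla, Ccl24 and Cxcl2 are far apart between libraries, and the intervals of KD values from 1 or 2 UMIs (Ccl24, Il6, Ltc4s) are wide.

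Genes of monocyte origin split. Plac8, an abundant gene of classical monocytes, had 524 UMIs in chow and 299 in KD, 294 against 1545 CPM, 5.25-fold [4.54 to 6.06] higher in KD. Its KD level was highest near the cut, at 2780 CPM in the 7 cells with 5 to 7 C1q UMIs. In cells with at least 20 it was 469 CPM in KD (13 cells) and 236 CPM in chow (142 cells). Among members with at least 10 C1q UMIs the log2 ratio of Plac8 was 1.70 in place of 2.39, and that of Ly6c2 1.80 in place of 2.13. Ly6c2 stood at 166 and 728 CPM, 4.38-fold [3.56 to 5.37] higher. Their per-cell medians were 0 in chow and 2.51 and 3.35 UMIs per 10000 in KD. Ly6c2 was seen in 104 of 275 chow members and 18 of 27 KD members; thinned to 1500 UMIs the shares were 14.7% and 44.9%, against 69.1% and 67.0% unthinned in cluster 1, where Ly6c2 belongs to the lymphoid cells. Ccr2 stood at 951 and 1090 CPM, with an interval of 0.989 to 1.32. Fn1, the matrix protein fibronectin, was 5.82-fold [4.51 to 7.65] lower in KD, at 1804 against 310 CPM. Of 7 monocyte markers, 2 lay above, Plac8 and Ly6c2, and 2 below, Fn1 and Chil3, the latter only with the 10 chow cells rich in it. Without the members with T and NK transcripts 3 lay above and 1 below.

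Receptors and secreted factors of resident macrophages were mixed, with more members lower than higher in KD. Mrc1 had 384 UMIs in chow and 16 in KD, 216 against 82.7 CPM, 2.61-fold [1.59 to 4.61] lower. Cd36, a scavenger receptor for lipids, stood at 299 and 93.0 CPM, a ratio of 0.311 [0.183 to 0.497]. Msr1, scavenger receptor A, was higher in KD, at 58.4 against 165 CPM, a ratio of 2.83 [1.84 to 4.24]. Pf4 stood at 230 and 114 CPM, a ratio of 0.494 [0.306 to 0.758]. Ltc4s, the enzyme that makes leukotriene C4, had 167 UMIs in 61 chow cells and 1 in KD, a ratio of 0.0551 [0.00139 to 0.311]. Sepp1 stood at 613 and 589 CPM, with an interval that holds 1. Of 6 scavenger receptors 2 lay below and 1 above, and of 11 other resident genes 4 lay below and 1 above.

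Of the interferon response and MHC class I genes measured, most were higher in KD members when each gene was counted once. Of 18 measured interferon response genes, 11 had the interval above 1 and 1, Ifitm3, below, with a median log2 ratio of 1.58. The list's sum, most of it Ifitm3, differed less, at 3351 CPM in chow and 4102 in KD with 15.5% of the KD sum in 1 cell, and per cell its median was lower in KD, at 25.9 against 32.9 UMIs per 10000. Zbp1, a sensor of nucleic acids, had 40 UMIs in chow and 23 in KD, a ratio of 5.29 [3.02 to 9.05]. Rtp4 had 52 and 24 UMIs, a ratio of 4.25 [2.50 to 7.01], and Isg15, a ubiquitin-like protein, had 73 and 22, a ratio of 2.77 [1.64 to 4.52]. Irf7, the transcription factor of type I interferon genes, had 30 and 18 UMIs, a log2 ratio of 2.48 that was 0.97 among cells with at least 10 C1q UMIs and 1.29 without each library's top cell. Cxcl10 is in the same list at a log2 ratio of 2.14, but 53 of its 64 KD UMIs were in 1 cell, and without the top cells the ratio was -0.10. Without the members that carried T and NK transcripts, 10 interferon genes lay above and none below.

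Of 9 genes of MHC class I presentation, which displays peptides from inside the cell, 8 had the interval above 1 and none below, with a median of 0.79. B2m, the shared light chain, stood at 3221 and 5130 CPM, 1.59-fold [1.49 to 1.70] higher in KD, with per-cell medians of 30.4 and 54.5 UMIs per 10000. The peptide-loading factor Tapbp stood at 88.7 and 243 CPM, 2.74-fold [1.93 to 3.81] higher, and H2-K1 at 1033 and 1534 CPM. Without the members with T and NK transcripts, 7 of the 9 lay above. MHC class II, which displays engulfed material, differed less. H2-Aa stood at 9054 and 9356 CPM, with an interval of 0.984 to 1.08, and of 13 members 4 lay above and none below, with a median of 0.13; the highest, Cd40, had 47 and 16 UMIs, and its log2 ratio of 1.68 was 0.05 among cells with at least 10 C1q UMIs.

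**Figure D4:**
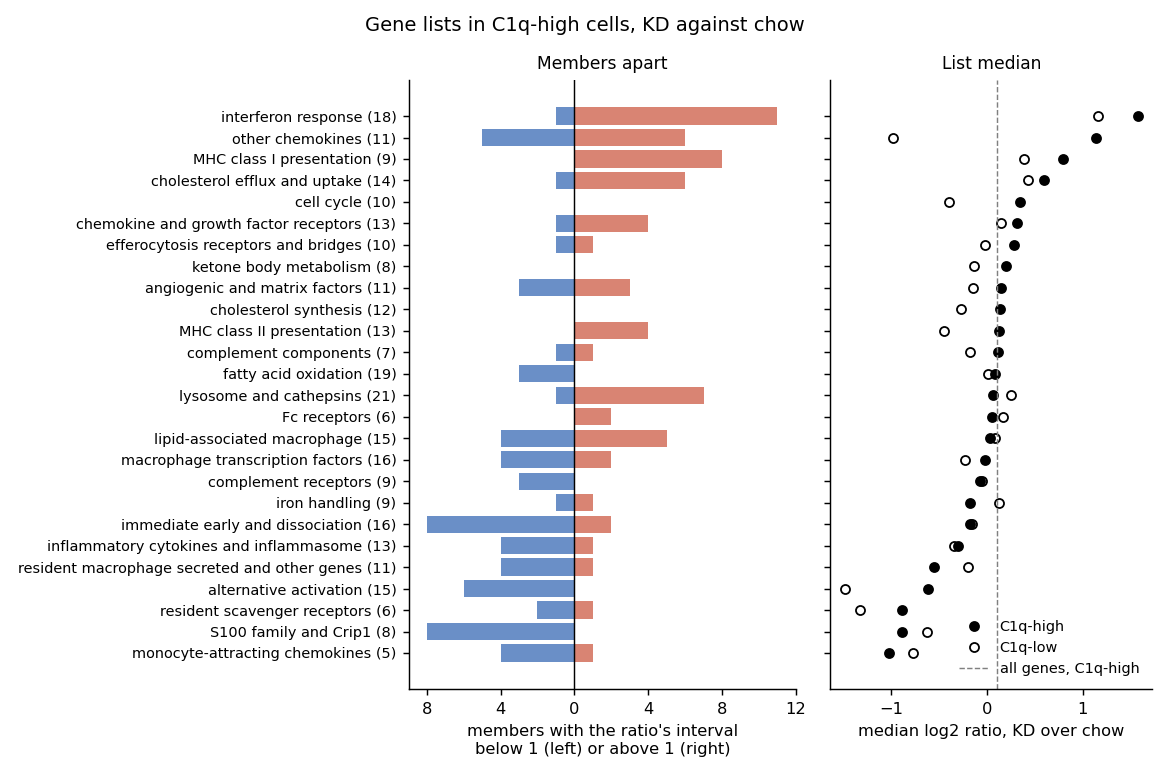
On the left, bars count the members of each fixed gene list whose KD over chow interval lay below 1 (left of 0) or above 1 (right of 0) in C1q-high cells, with the number of members measured with at least 10 UMIs in parentheses; on the right, points give the list's median log2 ratio in C1q-high cells (filled) and C1q-low cells (open), beside a dashed line for all genes. Interferon response and MHC class I genes stood above the line, and monocyte-attracting chemokines and the S100 family below it.

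Apoe had 6836 UMIs in chow and 1386 in KD, 3839 CPM [3749 to 3931] against 7160 [6788 to 7548], 1.87-fold [1.76 to 1.98] higher in KD. Cells with at least 50 Apoe UMIs per 10000 numbered 85 of 275 in chow and 13 of 27 in KD. The cholesterol exporter Abcg1 had 37 and 17 UMIs, a ratio of 4.23 [2.23 to 7.70], and Abca1, its partner exporter, had 18 and 7, a ratio of 3.58 [1.26 to 8.98]. Pltp, which moves phospholipid between lipoproteins, was lower, at 427 against 217 CPM. Of 14 cholesterol efflux and uptake genes 6 lay above and 1 below, with a median of 0.60. Without the members with T and NK transcripts 4 of 13 lay above. None of 12 cholesterol synthesis genes lay on either side.

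The list of lipid-associated macrophages, cells that gather around dying adipocytes in obesity, was split, with 5 of 15 above and 4 below. Lpl stood at 364 and 635 CPM, a ratio of 1.74 [1.43 to 2.12], and Spp1, encoding osteopontin, at 51.7 and 103 CPM. Plin2, the coat of lipid droplets, was lower at 942 and 548 CPM. Fabp4 had 97 and 35 UMIs, with 33 of the 35 in 1 KD cell; without the top cells its log2 ratio of 1.74 was -1.89. Lysosomal genes lay above in 7 of 21 and below in 1, Ctsd.

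None of 8 measured genes of ketone body metabolism had an interval apart from 1, with a median of 0.20. Oxct1, the enzyme that lets a cell burn ketone bodies, had 51 and 2 UMIs, an interval of 0.0425 to 1.37, and the ketone receptor gene Hcar2 had 17 and 5, an interval of 0.780 to 7.64. Counts this low could not resolve a difference of a few fold. Of 19 fatty acid oxidation genes 3 lay below, Etfa, Etfb and Cpt1a, and none above. Cpt1a, the gate of fatty acids into mitochondria, had 112 and 3 UMIs, a ratio of 0.246 [0.0501 to 0.739].

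All 8 genes of the S100 calcium-binding family and Crip1 lay below 1, with a median of -0.88. Their sum was 19409 CPM in chow members and 10457 in KD members. In all other clustered cells it was 18357 and 10406 CPM, so it was lower in KD there too. Crip1, a small zinc-binding protein, stood at 10637 and 5559 CPM and S100a6 at 3725 and 2087 CPM. S100a8, a neutrophil gene, had 130 UMIs and 1, with 79.2% of the chow UMIs in 1 cell, and S100a9 had 47 and 0. In complement beyond C1q, properdin (Cfp) stood at 613 and 279 CPM, a ratio of 0.455 [0.340 to 0.599]. Of 9 complement receptors and regulators 3 lay below, C5ar1, Itgam and Lrp1, and none above; without the members with T and NK transcripts 1 lay below and 1 above. Axl, a receptor for dying cells, was 1.61-fold [1.10 to 2.28] higher in KD. Of 10 measured genes for the uptake of dying cells, Axl alone lay above and Cd300lb alone below, at a log2 ratio of -1.75. Without the members with T and NK transcripts 2 lay above and none below.

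Of 16 immediate early and dissociation genes 8 lay below and 2 above. Egr1 stood at 649 and 191 CPM. Hspa1a, a heat shock protein, gave the highest log2 ratio among genes with at least 100 UMIs, 2.47, from 171 and 103 UMIs; 43 of the 103 were in 1 KD cell, and without the top cells the ratio was 1.91. The other highest ratios were those of AW112010 at 2.11, Lpar6 at 2.07, Vps37b at 1.93, Asph at 1.85 and Socs3, an inhibitor of cytokine signals, at 1.83. Vps37b was at 1.06 without the members with T and NK transcripts. The other lowest ratios were those of the protease Mmp19, with 154 UMIs and 1, and Tmem37, with 133 and 1.

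Transcripts of T and NK cells were higher in KD members. The 7 T cell markers summed to 132 CPM in chow and 372 in KD, with 4 of 6 measured above 1, and the 6 NK markers to 48.3 and 212 CPM, with 3 of 4 above. Both sums were also higher in KD in all other clustered cells. There the T cell markers stood at 680 and 1948 CPM and the NK markers at 501 and 816 CPM. At least 3 UMIs of these markers were found in 26 of 275 chow members (9.45% [6.27 to 13.5]) and 4 of 27 KD members (14.8% [4.19 to 33.7]). In KD, 1 cell gave 38.9% of the T cell marker UMIs and 1 cell gave 68.3% of the NK marker UMIs. Leaving those cells out gave 63 genes higher and 116 lower of 1975. Over 7710 genes with at least 10 UMIs, 454 then lay above and 290 below. MHC class I had 7 members above and none below and the S100 list 8 below and none above. Alternative activation had 5 below and none above. Other lists shifted: cholesterol efflux and uptake had 4 of 13 above and 1 below, inflammatory cytokines 1 above and 6 below, complement receptors 1 above and 1 below, and ketone body metabolism 1 of 7 above. The other chemokines had 5 above and 3 below, and their median was 0.000183 in place of 1.14.

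Other macrophage genes gave mixed counts. Fc receptors lay above in 2 of 6 and below in none, Fcgr1 at 98.8 and 232 CPM and the signalling chain Fcer1g at 2778 and 3301 CPM. Of 13 chemokine and growth factor receptors 4 lay above, among them Cx3cr1, the fractalkine receptor, at 123 and 196 CPM, and Ifngr1, an interferon-γ receptor chain, at 307 and 532 CPM, and 1 lay below. Among 16 transcription factors, Irf8 and Cebpa lay above, with Irf8 at 56.7 and 139 CPM, and Klf4, Klf2, Maf and Nr4a1 below. The cytokine Tgfb1 stood at 242 and 475 CPM, a ratio of 1.96 [1.55 to 2.46], in a list of 11 angiogenic and matrix factors with 3 above and 3 below. Of 9 iron handling genes the storage chain Fth1 lay above and the haem-degrading enzyme Hmox1 below, and none of 10 cell cycle genes lay on either side. With a C1q cut of 10 UMIs the log2 ratios of Fth1 and Klf2 changed sign, to -0.00505 and 0.11.

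The rest of cluster 3 held 584 chow and 118 KD cells with under 5 C1q UMIs. Retnla stood at 1554 and 182 CPM in these C1q-low cells and Ccl24 at 1530 and 104 CPM. Apoe stood at 2645 and 3978 CPM and Plac8 at 1745 and 3104 CPM. Of the 68 genes at least 2-fold higher in KD members, 61 had a ratio above 1 in C1q-low cells. Of the 103 at least 2-fold lower, 91 had a ratio below 1 there. Over all 2240 genes, 1207 lay above 1 and 1033 below in C1q-low cells. Both kinds of cell come from the same libraries, and whether the diet difference differed between them was not tested.

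**Figure D5:**
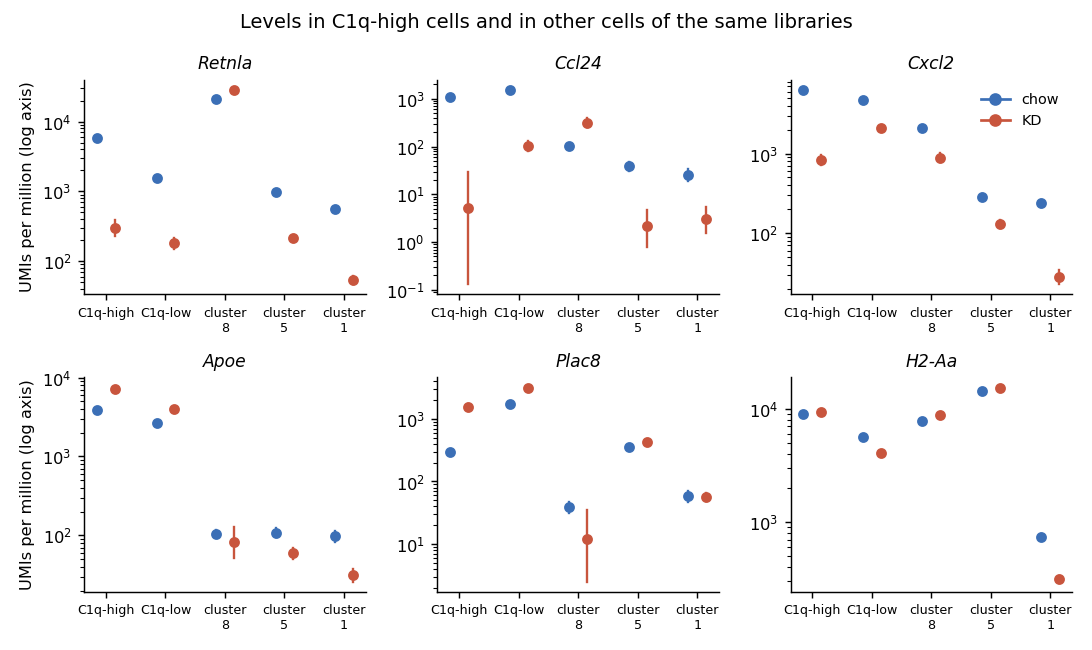
Points give summed UMIs as CPM (y axes, log scale) of 6 genes in C1q-high cells, C1q-low cells of cluster 3 and clusters 8, 5 and 1 (x axes), chow in blue and KD in red, with exact Poisson 95% intervals. Retnla was lower in KD in C1q-high and C1q-low cells but not in cluster 8, where it was most abundant, and among these populations Apoe was highest in the C1q-high and C1q-low cells.

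Members were set against C1q-low cells within each library. Of 4983 genes with at least 100 UMIs, 20 were at least 2-fold higher and 63 lower in chow, and 252 and 405 in KD, where the sums are smaller; 12 (0.241%) were at least 2-fold higher and 29 (0.582%) at least 2-fold lower in both libraries. Ranked by the mean of both log2 ratios, the 3 C1q chains led, followed by Pf4, Mgl2, Cd81, Il1a and Ms4a7; Il1a was 1.13-fold higher in chow and 19.5-fold in KD. Pf4 was 4.38-fold higher in chow and 9.57-fold in KD. Mgl2, a lectin of macrophages and dendritic cells, was 3.17-fold and 13.1-fold higher, and Ms4a7, a membrane protein of macrophages, 3.14-fold and 3.75-fold. Lower in members were Plac8, by 5.93-fold and 2.01-fold, and, by the same ranking, Dmkn, Ace, G0s2, Trem1, AA467197, Gk, Trem3 and Vcan, of which Trem1, Trem3 and Vcan are genes of monocytes and neutrophils. Dmkn had 52 UMIs in chow members and 0 in KD members, against 96.4 and 134 CPM in C1q-low cells.

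Cluster 8 was the other cluster where C1q was common, with 35 of 362 chow cells and 6 of 47 KD cells at 5 or more C1q UMIs. Against it, 157 of 4468 genes (3.51%) were at least 2-fold higher in members in both libraries and 90 (2.01%) lower. Apoe stood at 105 and 83.4 CPM in cluster 8, against 3839 and 7160 in members. Fcgr1, the high-affinity antibody receptor, had 15 UMIs and 0 in cluster 8 and 176 and 45 in members, and Ms4a7 had 1 and 0 against 75 and 27. Lower in members were Hr, with 0 UMIs in both libraries against 139 and 13, Fgfr1, with 36 and 0 against 406 and 30, and Fcrls, with 119 and 2 against 1365 and 148. Retnla stood at 21079 and 28199 CPM in cluster 8, above the members in both libraries. Cxcl2 there stood at 2100 and 889 CPM and B2m at 1728 and 1453 CPM.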

How the data were processed

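The authors deposited raw UMI counts per gene and cell for both libraries and a table of cluster numbers at resolution 0.5, per the file headers. Cell Ranger, Seurat and build mm10 are named without role or version, per the submitters' processing notes; cell calling and filters are not given in the sources used here. UMIs were summed over the members of each library, scaled to CPM, and compared as log2 ratios with 0.5 added to each sum, using numpy 2.4.6 and scipy 1.17.1. Intervals are exact: Poisson for sums, binomial for shares and conditional binomial for ratios. The ratio and its interval were checked on simulated Poisson sums without spread between cells. That check cannot speak for genes whose UMIs lie in few cells. With 1 library per diet no p-value was computed. Members and gene lists were chosen with earlier results of these data known. Genes are named as the 10 highest and 10 lowest diet ratios among those with 100 UMIs, the 8 against C1q-low cells and 5 against cluster 8 at each end, and from each list the 2 members with most UMIs and those with the highest and lowest ratio; other genes were chosen after their values were seen, and some genes under this rule are not reported here. Positions are from GENCODE M21 and promoters from RefSeq. Scrublet in scanpy 1.11.5 marked 7 cells per library (0.157% and 0.126%), too few to have worked, so doublets were not removed.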

Additional observations from a re-analysis of the deposited data

Results flagged for a closer look

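The genes below had opposite diet ratios in C1q-high cells and in another population of the same libraries, with both counting intervals apart from 1; the difference itself was not tested. Against cluster 8, the log2 ratio (KD over chow) of Retnla was -4.29 in C1q-high cells and 0.42 in cluster 8, and that of Ccl24 was -7.12 and 1.65. Pltp stood at -0.96 and 0.27, Klf2 at -0.29 and 0.26, and Lgals3 at -0.23 and 0.36. With a C1q cut of 10 UMIs Klf2 was at 0.11 in C1q-high cells, so its opposite direction was lost. In the other direction Plac8 stood at 2.39 in C1q-high cells and -1.48 in cluster 8, Cxcl10 at 2.14 and -1.97, and B2m at 0.67 and -0.25. Plac8 had 112 and 3 UMIs in cluster 8, and 53 of the 64 KD Cxcl10 UMIs in C1q-high cells were in 1 cell.

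Against C1q-low cells of cluster 3, Axl stood at 0.70 in C1q-high cells and -0.68 in C1q-low cells, and Cd74 at 0.13 and -0.40. In C1q-high cells Cd74 was at -0.11 with a C1q cut of 10 UMIs and at -0.0282 without the top cell, so its opposite direction was lost in both. Cxcl10, named above, was likewise at -0.0322 and -0.10. Ifitm3 stood at -0.14 and 0.18, and Lgals3 at -0.23 and 0.10.

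Outside cluster 3, 4 of 358 KD cells of cluster 5 (1.12% [0.305 to 2.84]) held at least 5 C1q UMIs, against 0 of 344 chow cells, which allows up to 0.872% taken as 3 cells (exact upper bound 1.07%).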

How the results depend on the processing

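The ratio of the C1q-high share, KD over chow, was 0.0787 over all clustered cells. It was 0.582 within cluster 3 and 0.199 over clusters 3, 5, 6, 8 and 12, and the other 9 alternatives gave 0.0631 to 0.102. The count of genes 2-fold apart between diets was 171. It was 437 with a minimum of 50 UMIs, 2013 with 10 and 74 with 200, 548 at a fold of 1.5 and 60 at a fold of 3. It was 257 without the top cell of each gene, which takes more from 27 cells than from 275. The other 9 alternatives gave 149 to 207. Against C1q-low cells the count was 41, and 20 with 5 added; the other 5 alternatives gave 34 to 59, and the count of 247 against cluster 8 ranged from 190 to 359. Median-centring and removing the marked doublets (1 member) could hardly move a gene's ratio and are left out of this tally. Of 565 values for 113 named genes under the other 5 alternatives, 493 stayed within the counting interval of the reported ratio and 62 lay outside it. A further 10, of genes whose interval was apart from 1, changed sign. With a C1q cut of 10 UMIs, Cd74 was at -0.11, Cxcl10 at -0.0322, Fth1 at -0.00505, Klf2 at 0.11 and Npc2 at -0.00781, and the median of the other chemokines at -0.0322. Without the top cell, Cd74 was at -0.0282, Cxcl10 at -0.10, Fabp4 at -1.89 and Tyrobp at -0.000677. As a mean over cells, Fos was at 0.11. The cause was not tested. The alternatives without T and NK transcripts and with an addition scaled to depth were chosen after seeing the data. No paired analysis was possible because each diet has 1 library, and for the same reason no replicate could be left out. Depth limits KD values most: 27 cells hold 193564 UMIs, so 1 UMI is 5.17 CPM.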
